A study of Homo sapiens with 3 samples.

Results

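The 42 genes described here encode nucleolar proteins that make ribosomes, and they were chosen by symbol from the deposited expression table, in which all 42 were found among 58735 listed genes. The cells were H660 (NCI-H660), an established human neuroendocrine prostate cancer line. They received vehicle (DMSO), 2.5 μM JG231 or 5 μM JG231 for 24 h, and JG231 is an allosteric inhibitor of the chaperone HSP70. The labels list the parental line in all 3 conditions, with 1 RNA-seq library per condition, so no replicate error exists and no test between conditions could be made. The neuroendocrine genes SYP, CHGA, ENO2 and NCAM1 were present in the DMSO library at 6.16 to 46.0 FPKM, while the luminal genes KLK3 and TMPRSS2 were at 0.13 and 0.32 FPKM. The labels give the cell type as prostatic adenocarcinoma.

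Ribosomes are assembled in the nucleolus. RNA polymerase I transcribes a long ribosomal RNA precursor there, small nucleolar ribonucleoproteins (snoRNPs) modify it, and large protein assemblies fold, cut and export it as the small (40S) and large (60S) subunits. Genes of this pathway are textbook targets of the MYC family of transcription factors, which bind DNA as partners of MAX.

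Values are FPKM, the number of sequenced fragments of a gene scaled by its length and by the library's size, so genes can be compared per unit of length. Where 3 values stand in a row they are those of the DMSO, 2.5 μM and 5 μM libraries, in that order. The length used for each gene is not given in the sources used here. Read back from the FPKM steps, the libraries held 16.1, 20.4 and 24.1 × 10⁶ fragments. A change is log2((FPKM in JG231 + 0.1)/(FPKM in DMSO + 0.1)), which understates low genes. A gene was counted as higher or lower past 0.25 on this scale if its FPKM was over 1 in either library. Both limits follow the study's methods, but their further rule of keeping genes listed at 0 in 1 library was not applied, which leaves NOP2 out of the counts. Intervals quoted below are 95% intervals of the ratio of fragments and cover counting error only. As no replicate exists, each gene is also given a spread, which is the robust SD of the difference between the JG231 libraries over the 500 genes nearest in FPKM.

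Most ribosome biogenesis genes were higher in the JG231 libraries, with UTP20, GNL3L, NCL and NOLC1 lower in both. At 5 μM 28 of the 41 members that passed the FPKM filter were higher and 6 were lower, and at 2.5 μM 23 were higher and 4 were lower. Over all genes tested, 36.5% were higher and 45.1% lower at 5 μM, and 36.4% were higher and 43.4% lower at 2.5 μM. The median change of the 41 members was 0.44 at 5 μM and 0.45 at 2.5 μM, beside medians of -0.11 and -0.08 over all 15765 and 15746 genes tested. With NOP2, the member that did not pass, the medians of the 42 were 0.42 and 0.37.

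The gap was narrower beside genes of similar expression. Among the 4485 protein-coding genes whose FPKM averaged 10 or more, 55.6% were higher at 5 μM and 53.0% at 2.5 μM, with median changes of 0.34 and 0.30. Of the 26 members at that level 17 were higher at 5 μM (65.4%) and 14 at 2.5 μM (53.8%), with medians of 0.39 and 0.37. The average includes the JG231 libraries, for members and for the 4485 genes alike, and 20 of the 26 were above 10 FPKM in DMSO. The others, NOB1, WDR74, UTP4, WDR43, BYSL and PNO1, reached that average only through the JG231 libraries. All of these were higher at both doses, so the member shares rest in part on the filter. At 2.5 μM the share of higher members, 53.8%, was close to the 53.0% of well expressed genes in general. The lower share was 11.5% of these 26 members against 21.4% of the genes at 5 μM, and 7.69% against 20.6% at 2.5 μM. Where shares of well expressed genes stand below beside groups with genes under 10 FPKM, the levels are not matched.

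The size of the changes and the counts also rested on the scale of the libraries. Mitochondrial genes made up 39.8%, 24.1% and 28.8% of the summed FPKM. When the libraries were rescaled to a common sum without mitochondrial and small RNA genes, 18 members were higher and 10 lower at 5 μM, and 20 were higher and 10 lower at 2.5 μM. On that scale 22.9% of all genes tested were higher and 60.1% lower at the higher dose, and 24.6% and 56.2% at the lower dose. The median change of protein-coding genes averaging 1 FPKM or more was 0.02 before and -0.35 after this rescaling at 5 μM, and 0.05 before and -0.24 after it at 2.5 μM. Rescaling a library shifts its genes by nearly the same log2 amount, so the distance of the member median from that gene, 0.42 at 5 μM and 0.40 at 2.5 μM, hardly moves by construction.

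**Figure D1:**
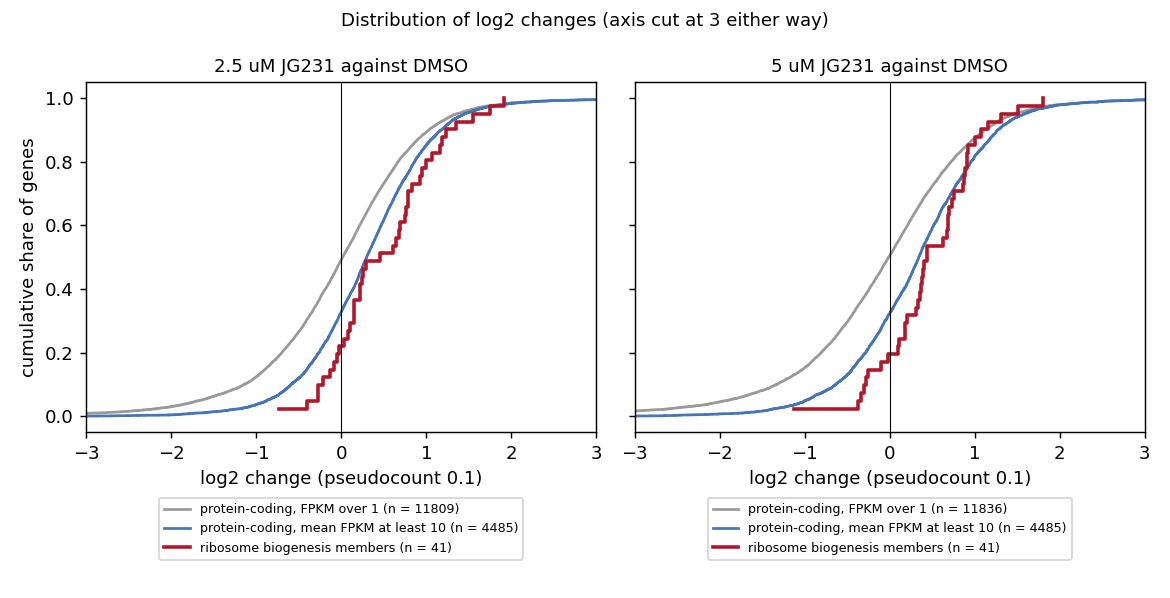
Cumulative share of genes (y axis) by log2 change against DMSO (x axis) at 2.5 μM JG231 (left) and 5 μM (right), for the 41 members tested, protein-coding genes with an FPKM over 1 in either library (grey), and protein-coding genes averaging 10 FPKM or more (blue). The member curve lies right of the grey curve over most of its range and runs closer to the blue curve, with medians of 0.44 for members and 0.34 for well expressed genes at 5 μM.

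Levels in vehicle spanned a wide range. In DMSO the highest members were NPM1 (nucleophosmin) at 146 FPKM and NCL (nucleolin) at 81.2 FPKM. The lowest apart from NOP2 were RRP8 at 1.14 FPKM and PPAN at 1.28 FPKM. The median over the 42 was 9.35, 14.8 and 13.8 FPKM, and members above 10 FPKM numbered 20, 28 and 28. All 41 tested members were above 1 FPKM in every library, so none passed the filter of 1 FPKM through the treated library alone.

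**Figure D2:**
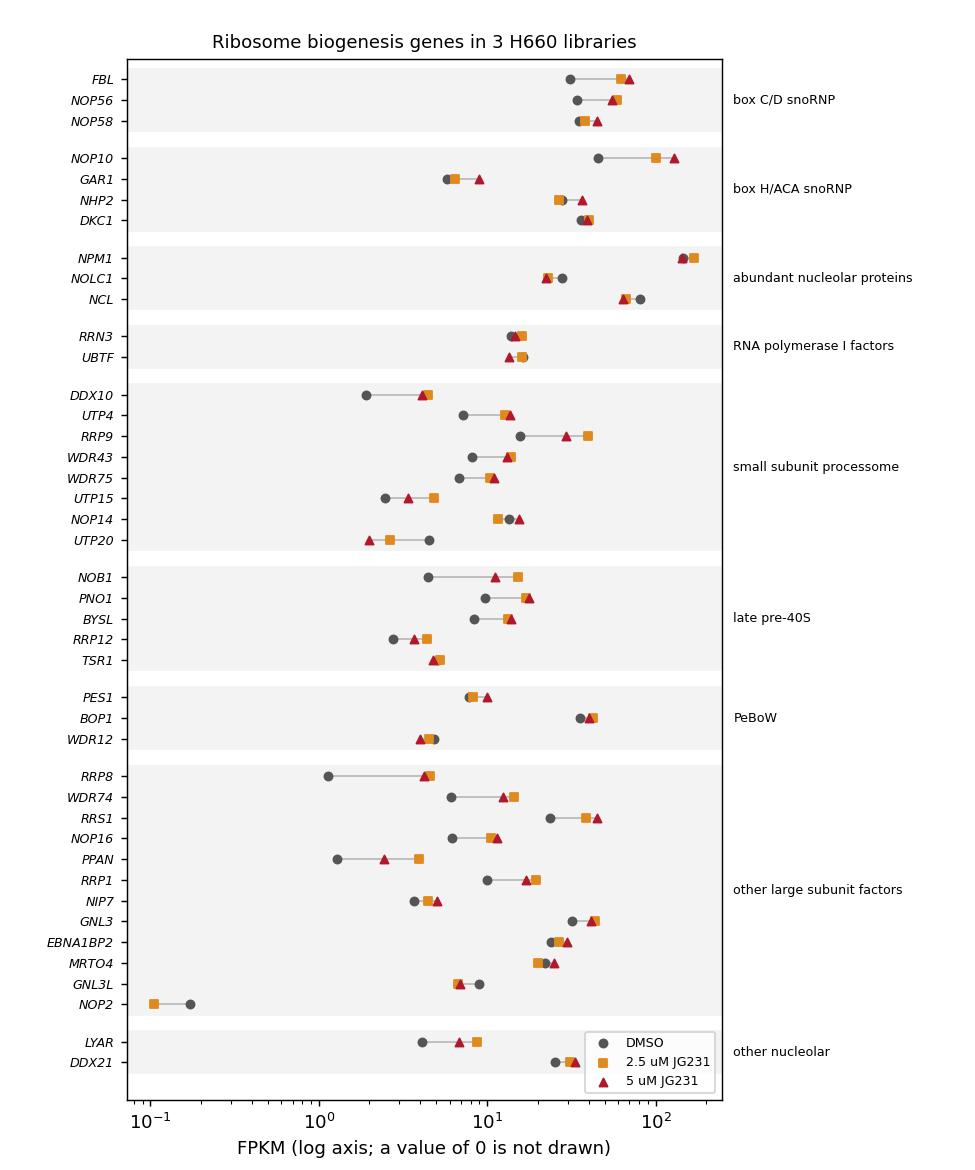
FPKM (x axis, log) of each member (y axis, grouped by role) in the DMSO, 2.5 μM and 5 μM JG231 libraries, 1 point per library, with NOP2 at 0 FPKM at 5 μM not drawn. Both JG231 points lie right of DMSO for most processome and pre-40S members, whereas NCL and NOLC1 lie left of it.

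The MYC genes moved in different directions. MYC had 4.62, 49.9 and 45.5 FPKM, 10.6-fold and 9.66-fold higher on the pseudocount scale. Its changes of 3.40 and 3.27 compare with a spread of 0.25. MAX, the partner of MYC proteins, had 10.5, 21.3 and 19.7 FPKM. MYCL went the other way, with 20.9, 6.11 and 6.33 FPKM. MYCN, which encodes N-Myc, had 0.69, 0.23 and 0.56 FPKM on 31, 13 and 37 fragments, and its interval was -2.65 to -0.62 at 2.5 μM and -1.05 to 0.41 at 5 μM, the latter including 0. Both JG231 libraries thus held more MYC and less MYCL RNA than DMSO, and the change of MYC exceeded that of every member of the nucleolar set.

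**Figure D3:**
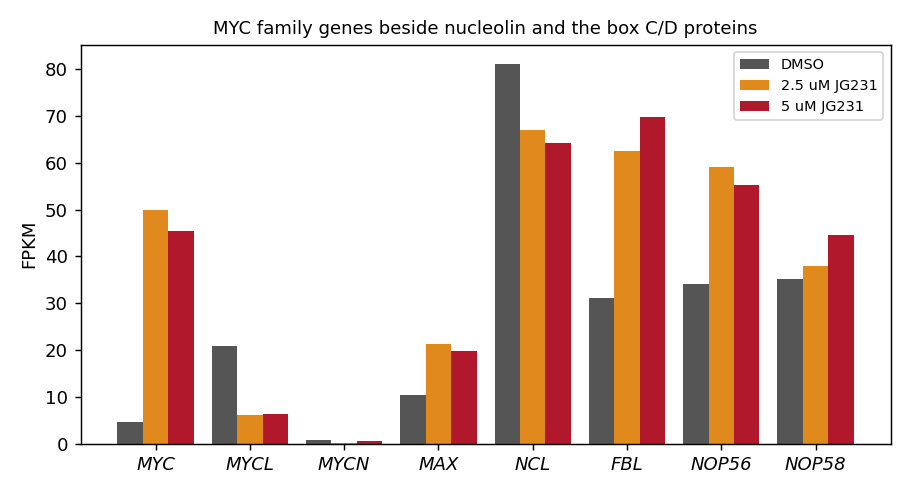
FPKM (y axis, from 0) of MYC, MYCL, MYCN and MAX beside nucleolin (NCL) and the box C/D proteins FBL, NOP56 and NOP58, 1 bar per library. MYC goes from 4.62 FPKM in DMSO to 49.9 and 45.5 FPKM in the JG231 libraries, while NCL goes from 81.2 to 67.0 and 64.3 FPKM.

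The canonical E-box, CACGTG, is the sequence MYC-MAX dimers are known to bind. It reads the same on both strands and was searched in RefSeq promoter windows on GRCh38.p14, from 250 bases before to 50 bases after the transcription start. Windows were found for 37 of the 42 members, and 17 of them (45.9%) held the motif. It was present for 8.77% of the 27305 genes with a window, and for 12.7% of 9441 protein-coding genes tested at 5 μM. In 16 members (43.2%) the motif lay within 50 bases of the start, against 5.32% of those protein-coding genes. The 30 bases around the motif are shown for 8 of these 16 members, drawn from several roles after their values were seen, so that its letters and surroundings can be read. Of the 8 shown, 7 were higher in both JG231 libraries and UTP20 was lower. Of the 8 not shown, BYSL and DDX21 were higher in both, GAR1, PES1 and EBNA1BP2 at 5 μM, MRTO4 and NOP14 in neither, and NOP2 was not tested. The lines are written 5′ to 3′ on the gene's strand.
NOP10 (chr15:34343130-34343159, minus strand): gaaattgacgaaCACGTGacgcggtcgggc
RRP9 (chr3:51941892-51941921, minus strand): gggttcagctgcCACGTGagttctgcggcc
UTP4 (chr16:69132621-69132650, plus strand): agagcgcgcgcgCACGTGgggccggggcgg
WDR43 (chr2:28894658-28894687, plus strand): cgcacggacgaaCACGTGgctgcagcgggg
FBL (chr19:39846356-39846385, minus strand): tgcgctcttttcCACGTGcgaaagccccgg
GNL3 (chr3:52686026-52686055, plus strand): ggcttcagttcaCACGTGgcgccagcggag
PNO1 (chr2:68157885-68157914, plus strand): ggtgcagctgcgCACGTGtttcagccggca
UTP20 (chr12:101280083-101280112, plus strand): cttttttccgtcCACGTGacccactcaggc

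Counted with the first transcribed base as 1, the motif began at -11 in NOP10, -5 in RRP9, -16 in UTP4, 4 in WDR43, 7 in FBL and GNL3, 10 in PNO1 and -10 in UTP20. NOP10 held a second copy at -170. Of the 16 tested members with the motif 13 were higher and 1 was lower at 5 μM, with a median change of 0.65. Of the 20 tested members whose windows lacked it 12 were higher and 4 lower, with a median of 0.44. At 2.5 μM 10 of the 16 (62.5%) were higher and 1 was lower, against 11 and 2 of the 20 (55.0% higher), with medians of 0.56 and 0.44. These higher shares compare with 36.5% of all genes at 5 μM and 36.4% at 2.5 μM, and with 55.6% and 53.0% of well expressed ones. Past 1 on the log2 scale, the share was 12.5% with the motif and 20% without it at 5 μM, and 25% in both at 2.5 μM. Over all genes the share past 1 was 14.7% and 12.9%. Over all protein-coding genes tested the medians at 5 μM were 0.06 with the motif and -0.0032 without it. A match is a description of the letters, and binding was not measured here. The motif was also common in the other factors of the pathway, in 16 of 40 further small subunit factors (40%) and 12 of 40 further large subunit factors (30%), and was in none of 10 snoRNP assembly factors.

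In the deposited values the 3 box C/D snoRNP members were all higher at 5 μM, to different degrees. At that dose 36.5% of all genes and 55.6% of well expressed ones were higher. The box C/D proteins carry the guide RNAs that place 2′-O-methyl groups on ribosomal RNA. FBL (fibrillarin, chromosome 19, 39834458 to 39846379 on GRCh38), the methyltransferase, had 31.2, 62.5 and 69.7 FPKM. Its changes of 1.002 and 1.16 (interval 1.06 to 1.26 at 5 μM) were several times its spread of 0.22. NOP56, a core scaffold protein, had 34.2, 59.1 and 55.2 FPKM, changes of 0.79 and 0.69. Its paralogue NOP58 had 35.3, 37.9 and 44.6 FPKM, changes of 0.10 and 0.34, and the latter was -0.04 after rescaling without mitochondrial and small RNA genes. The 3 proteins thus lay between 31.2 and 35.3 FPKM in vehicle and between 44.6 and 69.7 FPKM at 5 μM.

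The box H/ACA snoRNP proteins, which guide pseudouridylation and also stabilise telomerase RNA, differed more among themselves. NOP10, the smallest of them (chromosome 15, 34339159 to 34343180), had 45.2, 101 and 129 FPKM. Its changes of 1.16 and 1.51 compare with a spread of 0.21. DKC1 (dyskerin), the pseudouridine synthase of the same particle, had 36.2, 40.1 and 39.0 FPKM, changes of 0.15 and 0.11 that were within its spread of 0.22. After rescaling without mitochondrial and small RNA genes it counted as lower at 5 μM. NHP2 had 27.7, 26.8 and 36.7 FPKM, changes of -0.05 and 0.41, and the latter was -0.23 with the transcript length trend removed. GAR1 was the lowest, with 5.74, 6.41 and 8.90 FPKM and changes of 0.16 and 0.62. The latter fell just short of 0.25 after rescaling without mitochondrial and small RNA genes. NOP10, NHP2 and GAR1 were each higher at 5 μM than at 2.5 μM, by 0.35, 0.45 and 0.47 on the log2 scale, and DKC1 was not (-0.04). Among all genes 26.8% were higher by more than 0.25 in that comparison. A common FPKM sum lowers these differences, and that of NOP10 then does not pass 0.25.

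NPM1, NCL and NOLC1 are multifunctional nucleolar proteins, grouped as abundant in the plots, although NOLC1 was below FBL, NOP56, NOP58, NOP10 and DKC1 in DMSO. NPM1, a histone and ribosome chaperone of the outer nucleolus, had 146, 170.3 and 144 FPKM. It has 45 listed pseudogenes, whose FPKM summed to 11.8, 11.6 and 7.17, so its value is uncertain by reads they could share. NCL, which binds nascent ribosomal RNA, had 81.2, 67.0 and 64.3 FPKM, changes of -0.28 and -0.34 against a spread of 0.22. NOLC1, a snoRNP chaperone of the nucleolus and Cajal bodies, had 27.8, 22.9 and 22.4 FPKM, changes of -0.28 and -0.31 against a spread of 0.25. After rescaling without mitochondrial and small RNA genes the 5 μM changes were -0.72 for NCL and -0.68 for NOLC1. On that scale NPM1 also counted as lower at 5 μM. None of the 3 was higher by more than 0.25 at either dose.

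The RNA polymerase I factors showed small differences in the deposited values, which were larger and negative after rescaling without mitochondrial and small RNA genes (-0.65 for UBTF and -0.29 for RRN3 at 5 μM). UBTF, which binds and opens the ribosomal DNA, had 16.3, 16.04 and 13.5 FPKM. Its change of -0.28 at 5 μM was about the size of its spread of 0.26. RRN3, which brings the polymerase to the promoter, had 13.8, 16.1 and 14.7 FPKM, changes of 0.22 and 0.09 within its spread of 0.27.

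In the small subunit processome, the assembly that folds the precursor around the U3 snoRNA, 6 of 8 members were higher and 1 was lower at each dose, beside 36.5% and 45.1% of all genes at 5 μM and 36.4% and 43.4% at 2.5 μM. Of well expressed genes 55.6% and 53.0% were higher, but only 2 of the 8 members were above 10 FPKM in DMSO. The WD-repeat proteins that associate early with the precursor were higher in both libraries. WDR43 had 8.14, 13.8 and 13.1 FPKM, UTP4 had 7.14, 12.8 and 13.6 FPKM, and WDR75 had 6.80, 10.4 and 10.9 FPKM. UTP15, of the same early group, had 2.48, 4.81 and 3.41 FPKM, changes of 0.93 and 0.44, the latter within its spread of 0.47 and 0.076 after rescaling without mitochondrial and small RNA genes. These 4 genes were 1.60-fold, 1.89-fold, 1.60-fold and 1.36-fold higher at 5 μM on the pseudocount scale.

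RRP9, which binds the U3 snoRNA, had 15.6, 39.97 and 29.5 FPKM. Its changes were 1.35 and 0.91 against a spread of 0.27. DDX10, an RNA helicase, had 1.91, 4.47 and 4.13 FPKM, changes of 1.18 and 1.07 against a spread of 0.49. NOP14 had 13.5, 11.6 and 15.5 FPKM, changes of -0.21 and 0.20. UTP20, a very large scaffold protein, was the lowest of the tested members in change, with 4.48, 2.65 and 1.998 FPKM. Its changes of -0.74 and -1.13 (interval -1.335 to -0.997 at 5 μM) compare with a spread of 0.57.

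Of the 5 factors that act on the late pre-40S particle 4 were higher at both doses, where 36.5% (5 μM) and 36.4% (2.5 μM) of all genes and 55.6% and 53.0% of well expressed ones were higher. In DMSO these 5 factors were at 2.77 to 9.74 FPKM, so the well expressed genes are not matched to them in level. NOB1 (chromosome 16, 69741871 to 69754926), the nuclease that makes the final cut of 18S ribosomal RNA, had 4.43, 15.1 and 11.1 FPKM. It was 3.37-fold and 2.47-fold higher, on 150, 648 and 561 fragments, and 20.4% of its exon bases overlap the antisense gene AC092115.3. PNO1, the binding partner of NOB1, had 9.74, 16.9 and 17.7 FPKM. BYSL (bystin) had 8.35, 13.4 and 13.9 FPKM. RRP12, an export factor, had 2.77, 4.37 and 3.67 FPKM, and its change at 5 μM of 0.39 was within its spread of 0.48. TSR1, a GTPase-like protein of the same particle, had 5.13, 5.27 and 4.76 FPKM, changes of 0.04 and -0.11. After the same rescaling it counted as lower at 5 μM.

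On the large subunit side, the PeBoW complex, which acts in the maturation of 28S and 5.8S ribosomal RNA, differed little between libraries. PES1 (pescadillo) had 7.79, 8.25 and 9.98 FPKM. Its change of 0.35 at 5 μM was -0.02 after rescaling without mitochondrial and small RNA genes. BOP1 had 35.8, 42.3 and 40.4 FPKM, changes of 0.24 and 0.17. WDR12 had 4.80, 4.52 and 3.997 FPKM, and its change of -0.26 at 5 μM was within its spread of 0.45, was 0.19 with the length trend removed and was -0.63 after rescaling without mitochondrial and small RNA genes. None of the 3 was past 0.25 at 2.5 μM.

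Of the other large subunit factors, 9 of the 11 tested were higher and 1 was lower at 5 μM. At 2.5 μM 8 were higher and 1 was lower. Over all genes 36.5% and 36.4% were higher at these doses and 45.1% and 43.4% lower, and over well expressed genes 55.6% and 53.0% were higher. RRP8 (chromosome 11, 6595072 to 6603616), a methyltransferase of 28S ribosomal RNA, had the largest change of all 41 tested members at a pseudocount of 0.1, with 1.14, 4.56 and 4.23 FPKM. At a pseudocount of 1 its change was 1.29 at 5 μM, below that of NOP10 (1.49), and 1.38 at 2.5 μM, below that of NOB1 (1.57). Its changes of 1.91 and 1.80 rested on 127, 643 and 705 fragments and compare with a spread of 0.52. WDR74, a pre-60S factor, had 6.10, 14.5 and 12.4 FPKM, changes of 1.23 and 1.01. Its exons overlap the small nuclear RNA gene RNU2-2P, and the part of that overlap in its value was not tested.

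RRS1, which brings the 5S ribonucleoprotein into the particle, had 23.8, 38.6 and 44.8 FPKM, changes of 0.70 and 0.91. NOP16 had 6.19, 10.6 and 11.5 FPKM, and RRP1 had 10.03, 19.5 and 17.1 FPKM. PPAN had 1.28, 3.93 and 2.43 FPKM, the first of these on 59 fragments, and shares 49.2% of its exon bases with other genes on its strand, the readthrough gene PPAN-P2RY11 among them. The remaining higher genes were smaller in change. NIP7 had changes of 0.26 and 0.44, both within its spread of 0.46, and they were -0.02 and 0.070 after rescaling without mitochondrial and small RNA genes. GNL3 (nucleostemin) had 31.9, 43.7 and 41.1 FPKM, and its change of 0.36 at 5 μM was -0.02 after that rescaling. EBNA1BP2 had changes of 0.15 and 0.31, and the latter was -0.07 after that rescaling and -0.15 with the length trend removed. MRTO4, a paralogue of the ribosomal stalk protein P0, had 22.1, 20.1 and 24.98 FPKM and stayed within 0.25 at both doses, with changes of -0.13 and 0.18.

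GNL3L, the paralogue of GNL3, was the lower member of this group, with 8.96, 6.73 and 6.87 FPKM. Its changes of -0.41 and -0.38 compare with a spread of 0.32, and the latter was 0.10 with the length trend removed and -0.75 after rescaling without mitochondrial and small RNA genes. NOP2, a cytosine methyltransferase of 28S ribosomal RNA, was listed at 0.17, 0.10 and 0 FPKM, on 13, 10 and 0 fragments. Set against a floor of 3 fragments in the 5 μM library, it was at least 6.48-fold lower there than in DMSO with the 13 fragments taken as exact, and the counting interval of both libraries reached up to -2.19 on the log2 scale. It shares 54.4% of its exon bases with AC006064.6 on the same strand, which is listed at 0 in all 3 libraries, so its level is uncertain.

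The last 2 members have broader nucleolar roles. LYAR, a nucleolar zinc finger protein, had 4.13, 8.74 and 6.77 FPKM, changes of 1.06 and 0.70. DDX21, a helicase that binds ribosomal RNA and snoRNAs, had 25.4, 31.2 and 33.1 FPKM, and its change of 0.38 at 5 μM was -0.00062 after rescaling without mitochondrial and small RNA genes.

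**Figure D4:**
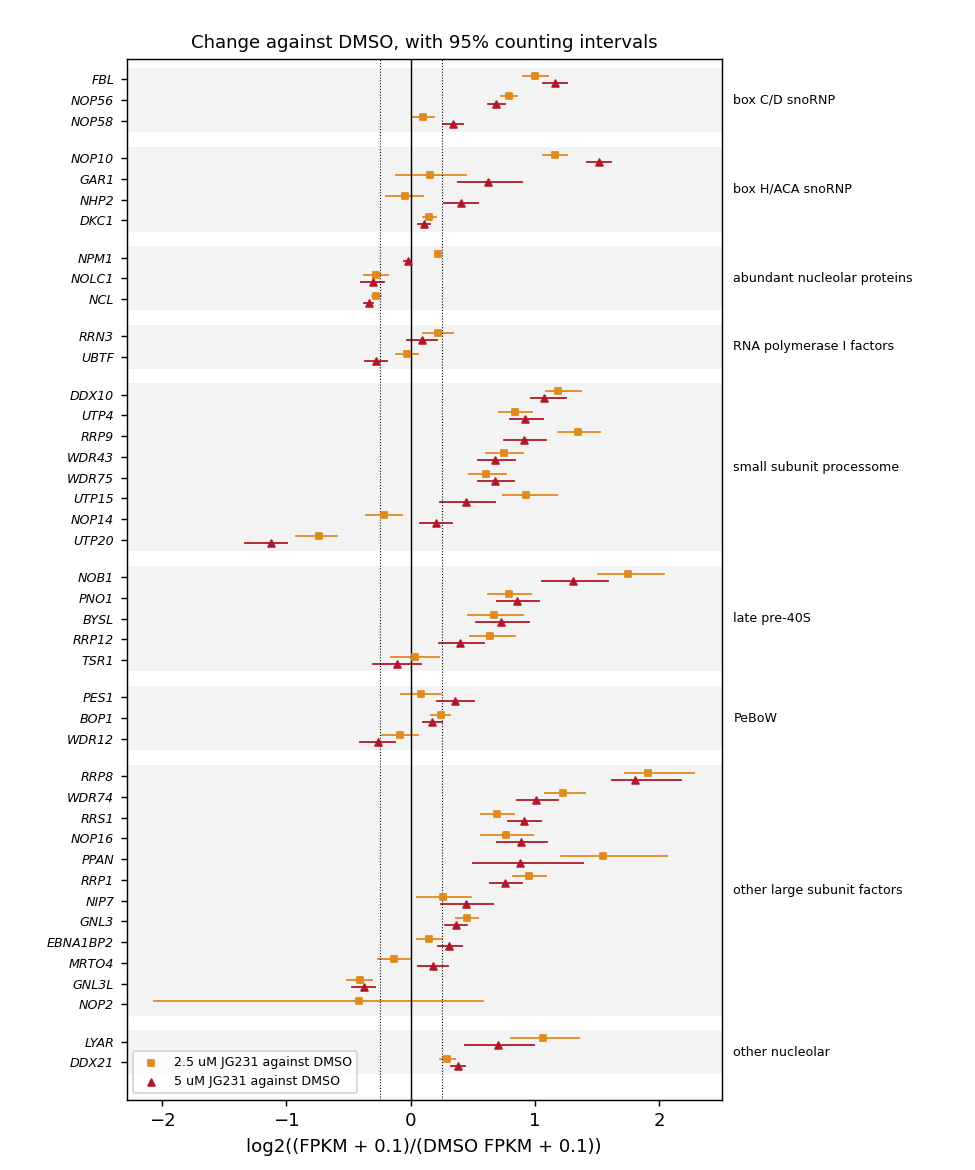
log2 change against DMSO (x axis) of each member at 2.5 μM (squares) and 5 μM JG231 (triangles), grouped by role, with 95% counting intervals as lines and dotted lines at 0.25 either way; NOP2 at 5 μM, listed at 0, is not drawn. RRP8, NOB1, NOP10, FBL, WDR74 and DDX10 exceed 1 at both doses, and UTP20 is the tested member farthest to the left.

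The doses gave similar values for most members. Both are compared with the same DMSO library, so that library's error enters both. At both doses 23 members were higher and 4 were lower, and 5 had opposite signs, each of them within 0.25 at 1 dose or both. No share of all genes called at both doses is given here, so this overlap cannot be read as a trait of the members. Past 1 on the log2 scale there were 9 members at 2.5 μM (22.0%, beside 12.9% of all genes) and 6 at 5 μM (14.6%, beside 14.7%). Below -1 there was 1 member at 5 μM, UTP20, beside 24.3% of all genes, and 0 at 2.5 μM, beside 21.7%. With a pseudocount of 1, WDR74 (0.91), DDX10 (0.82) and UTP20 (-0.87) were no longer past 1 either way at 5 μM. At 2.5 μM FBL (0.98), LYAR (0.93) and DDX10 (0.91) were not. After rescaling without mitochondrial and small RNA genes, only RRP8 and NOP10 stayed above 1 at 5 μM. Compared directly, the 5 μM library was higher than the 2.5 μM library by more than 0.25 for 6 members and lower for 6, of 41. Among all genes 26.8% were higher and 30.1% lower in that comparison. The median difference of the members was -0.06. GAR1 (0.47), NHP2 (0.45) and NOP14 (0.41) had the largest positive differences, and PPAN (-0.67), UTP15 (-0.49) and NOB1 (-0.45) the largest negative ones.

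Transcript length ran along with the changes. Across the 41 tested members, changes were ranked against the length of each gene's canonical transcript. Spearman's rho was -0.51 at 5 μM and -0.36 for the lower dose. Pearson's r with log2 length was -0.53 and -0.32. Without NOP10 and UTP20, the shortest and longest, rho was -0.44 and -0.27. These are correlations across genes that share the same libraries, and over 11836 protein-coding genes rho was -0.35 at 5 μM. The 13 shortest members (507 to 1720 bases) had a median change of 0.88 at 5 μM, with 12 higher and 0 lower, and the 2139 protein-coding genes in that length range had a median of 0.46, with 60.9% higher and 22.2% lower. The 15 members of middle length (1913 to 3506 bases) had a median of 0.68 at 5 μM, with 12 higher and 0 lower, against 0.14 for the genes of that range, of which 43.8% were higher and 32.3% lower. The 13 longest (3556 to 9031 bases) had a median of -0.11, with 4 higher and 6 lower, against -0.27 for genes of that range, of which 24.3% were higher and 50.8% lower. At 2.5 μM the higher and lower members numbered 9 and 0 among the shortest, 10 and 0 in the middle, and 4 and 4 among the longest. Of the genes in those length ranges 53.8%, 42.9% and 29.2% were higher, and 25.9%, 32.9% and 43.99% were lower. All 6 members lower at 5 μM were among these 13, and the 4 higher ones were RRP8 (6559 bases), UTP15, RRP12 and DDX21. With the length trend of all protein-coding genes removed, the member medians were 0.29 at 5 μM and 0.34 at 2.5 μM.

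**Figure D5:**
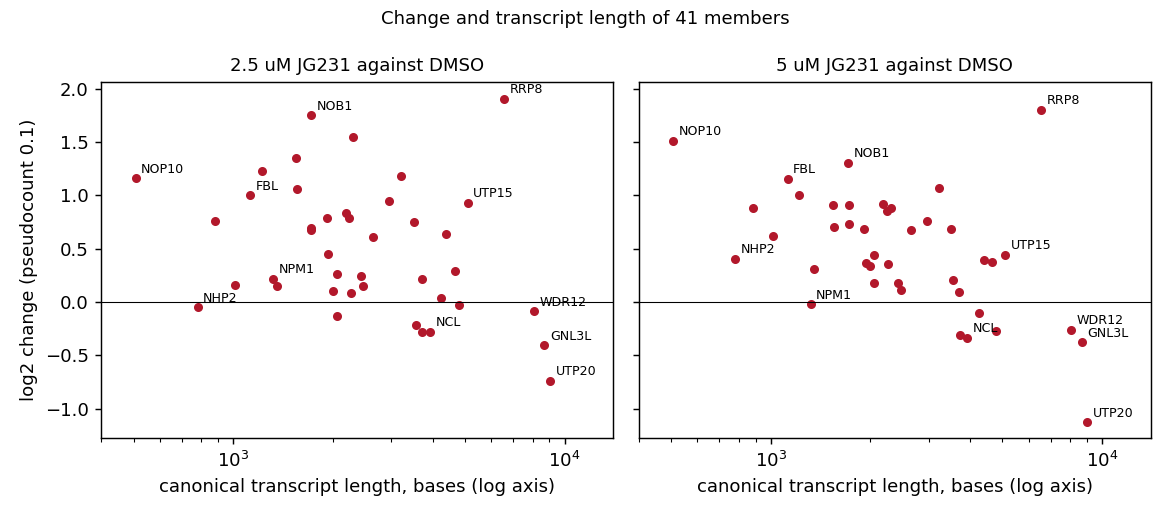
log2 change against DMSO (y axis) by length of the canonical transcript (x axis, log) for the 41 tested members, 1 point per gene, at 2.5 μM (left) and 5 μM JG231 (right). NOP10 at 507 bases and UTP20 at 9031 bases mark the ends of the trend at 5 μM, and RRP8 lies above it.

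Other genes of the pathway were described from wider lists of factors outside the 42. Of 46 tested further factors of the small subunit, 22 were higher and 7 lower at 5 μM, and 26 were higher and 7 lower at 2.5 μM. The higher share was 47.8% at 5 μM, above the 36.5% of all genes and below the 55.6% of well expressed protein-coding genes. At 2.5 μM it was 56.5%, beside 36.4% and 53.0%. Their medians were 0.21 and 0.37. The largest changes at 5 μM were those of DDX49, a helicase, with 16.8, 40.8 and 49.5 FPKM, and NOC4L, with 10.9, 21.4 and 30.2 FPKM. The lowest were those of DIMT1, a dimethyltransferase of 18S ribosomal RNA, with 8.59, 6.11 and 5.61 FPKM, and ESF1, with 8.62, 7.10 and 5.74 FPKM.

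Of 45 tested further factors of the large subunit 31 were higher and 1 was lower at 5 μM, and 28 were higher and 2 lower at 2.5 μM. The higher shares were 68.9% and 62.2%, beside 36.5% and 36.4% of all genes and 55.6% and 53.0% of well expressed ones. Their medians were 0.45 and 0.46. SBDS, which helps to release EIF6 from the new 60S subunit, had 18.7, 54.4 and 55.0 FPKM. EIF6 itself, which keeps the subunits apart, had 36.1, 69.7 and 101.7 FPKM. RRP1B was the lower one at 5 μM, with 13.1, 7.04 and 3.996 FPKM, whereas its paralogue RRP1, a member, had 10.03, 19.5 and 17.1 FPKM. The next lowest tested, the helicase DDX51, had 4.71, 4.84 and 4.11 FPKM.

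Factors listed for the assembly of snoRNPs, not all of them chaperones, were the last group. Of 13 tested 8 were higher and 1 lower at 5 μM, and 10 were higher and 2 lower at 2.5 μM, with medians of 0.41 and 0.66 and higher shares of 61.5% and 76.9%. The share was 36.5% and 36.4% over all genes, and 55.6% and 53.0% over well expressed ones. NUFIP1, an assembly platform for box C/D particles, had 2.23, 5.93 and 7.44 FPKM. NAF1, which holds the place of GAR1 in immature H/ACA particles, had 1.91, 3.02 and 5.26 FPKM. SHQ1, a dyskerin chaperone, had 4.18, 2.74 and 3.14 FPKM, and RPAP3, of the R2TP complex, had 5.27, 8.36 and 4.55 FPKM.

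Several members also host snoRNAs in their introns. A listed snoRNA gene lay on the same strand inside 8 members (DKC1, GNL3, NCL, NOP56, NOP58, PPAN, TSR1 and WDR43). Of these 5 were higher and 1 lower at 5 μM, with a median change of 0.35, and the 33 other tested members had a median of 0.44. At 2.5 μM 4 were higher and 1 lower, with a median of 0.30 against 0.61 for the others. The hosts had a median of 33.1 FPKM in DMSO, and of well expressed genes 55.6% were higher at 5 μM and 53.0% at 2.5 μM (36.5% and 36.4% of all genes). PPAN was the only host past 1 on the log2 scale, and only at 2.5 μM.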

How the data were processed

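RNA-seq values of 3 H660 libraries were used (DMSO, 2.5 μM and 5 μM JG231). The authors deposited gene-level FPKM. Their methods name HISAT, StringTie and also a Top Hat-Cufflinks pipeline, while the submitters' processing notes name HISAT2, featureCounts and GRCh38 (hg38). Versions, the annotation release and the use of strand in counting are not given in the sources used here, so overlapping and antisense genes are uncertain. Overlaps not named above include 23.9% of the exon bases of TSR1, 20.7% of NOP14, 18.6% of NOP16 and 18.4% of NIP7. Beyond the library size in FPKM, no scaling between libraries was applied.

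Members and gene lists were chosen with earlier results of these data known. Every member is named, and of each other pathway list the 2 highest and 2 lowest changes at 5 μM. IDs were matched to GENCODE release 44 (58207 of 58735 genes, all 42 members).

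The value of 1 fragment was read from the FPKM steps, times exon length, of single-transcript genes below 50 fragments. Values were whole within 0.1 fragments for 90.1% of 4748 genes in DMSO, 87.9% of 3263 at 2.5 μM and 86.3% of 2036 at 5 μM. Fragments of genes with several transcripts are approximate. Counting intervals are exact (Clopper-Pearson) 95% intervals of the fragment ratio, without a pseudocount, and assume independent molecules, which PCR copies are not. No count model was fitted. Calls, medians and correlations are descriptions of 3 libraries. The length trend was fitted by lowess (fraction 0.3) over protein-coding genes averaging 1 FPKM or more. The calculations were tested on simulated data and used statsmodels 0.14.6, scipy 1.17.1, pandas 2.3.3, numpy 2.4.6 and Python 3.11.15, with figures by matplotlib 3.10.9. Promoter windows are from RefSeq on GRCh38.p14. 1 gene of the fixed lists, NOPCHAP1, had no row of that symbol.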

Additional observations from a re-analysis of the deposited data

How the results depend on the processing

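The member medians (0.44 at 5 μM and 0.45 at 2.5 μM) kept their sign under every alternative run. They were 0.31 at 5 μM with a common FPKM sum, 0.070 and 0.16 with a common sum without mitochondrial and small RNA genes, 0.29 and 0.34 with the length trend removed, and 0.71 at both doses over the 14 tested members with no overlapping gene or pseudogene. The median difference between the doses, -0.06, was -0.24 with a common sum, -0.15 without mitochondrial and small RNA genes, and 0.063 over those 14. Without mitochondrial and small RNA genes 18 members were higher and 10 lower at 5 μM, and 10 were lower at 2.5 μM. With a common sum 2 were lower at 2.5 μM. Fewer genes enter the next counts by construction. Over the 14 members 11 were higher and 2 lower at 5 μM, and 10 and 2 at 2.5 μM. No values of other genes without such overlaps are given here, so these counts and the median of 0.71 have no reference. Among the 26 members averaging 10 FPKM or more, 17 and 3 were higher and lower at 5 μM, and 14 and 2 at 2.5 μM. Past 1 there were 6 and 1 at 5 μM, and 9 and 0 at 2.5 μM, and past 0.5 there were 19 higher and 1 lower at 5 μM, and 20 and 1 at 2.5 μM. No share of all genes past 0.5 is given here, so the counts at that limit have no reference. Single changes past 0.25 that turned sign without mitochondrial and small RNA genes were those at 5 μM of PES1 (-0.023), NOP58 (-0.041), GNL3 (-0.015), EBNA1BP2 (-0.066) and DDX21 (-0.00062), and of NIP7 at 2.5 μM (-0.023). With the length trend removed they were, at 5 μM, WDR12 (0.19), NHP2 (-0.23), EBNA1BP2 (-0.15) and GNL3L (0.10). The cause was not tested. No other change of a member past 0.25 turned sign. No paired analysis was possible because each condition has 1 library, and for the same reason no library could be left out.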

Other observations

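Protein-coding genes that lay mostly inside other listed genes had low values. Of 16470 genes with no exon base inside an exon of another listed gene on the same strand, 42.4% had a mean FPKM under 1. The share was 34.9% of 2527 genes with less than 50% of their exon bases inside another gene, 85.6% of 397 genes with 50% to 90%, and 98.4% of 437 genes with at least 90%, so it was not higher at small overlaps. NOP2, the lowest member in DMSO, had 54.4% of its exon bases in AC006064.6. PPAN had 49.2% and lay in the class below 50%. AC006064.6 and PPAN-P2RY11, which overlaps PPAN, were each listed at 0 FPKM in all 3 libraries. These values were looked at after those of the members were seen, and the part of overlap in the level of NOP2 was not tested.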
